A study of Mus musculus with 9 samples.

Results

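The p53 target genes and the INK4 locus were examined as 31 genes of the 55401 gene IDs in the count tables: Trp53 itself, its regulators Mdm2 and Mdm4, 26 target genes for arrest, cell death, repair and metabolism, and Cdkn2a with its neighbour Cdkn2b. The genes came from a list of names, which was chosen with earlier results of these data known. Poly(A) RNA was sequenced from cultured NP53 cells, a mouse cell line labelled as diffuse midline glioma. G1C7 and G2C9 are derivatives of NP53 with the genotype TIM-3 knockout, and Gcontrol is NP53 labelled as wild type. Each of the 3 groups had 3 libraries. All cells grew in DMEM with 10% fetal bovine serum. The labels do not state whether the line carries intact p53, how each derivative was made, or whether the libraries of a group came from separate cultures. Each derivative is thus 1 line, and the p-values rest on the spread between libraries within groups, which may be technical. That spread was estimated over all 9 libraries together, not from the libraries of 1 derivative.

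p53 is a transcription factor that DNA damage and oncogene signals stabilise. MDM2, a ubiquitin ligase, marks it for degradation and MDM4 blocks its transactivation domain, and Mdm2 is itself a target, which closes a feedback loop. Cdkn2a encodes a pair of unrelated proteins from separate first exons: p16INK4a, which inhibits CDK4 and CDK6, and p19ARF, which restrains MDM2. Its neighbour Cdkn2b encodes p15INK4b, another inhibitor of CDK4 and CDK6. Cdkn2a is a locus often lost in glioma, and its transcription in mouse cells is known to be restrained by p53.

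Promoter sequences are printed for the core of this loop and for both members that passed the test against Gcontrol, Polk and Phlda3. They come from RefSeq on build GRCm38.p6, where 23 of the 31 genes had promoter windows and Pmaip1, Tnfrsf10b, Perp, Trp53inp1, Zmat3, Ddb2, Xpc and Rrm2b had none in the table used. A window covers 250 bases before an annotated start and 50 after it. The p53 half-site consensus of 10 bases was searched; it reads the same on both strands, and no other motif was searched. Capitals mark a match, and each printed stretch is 90 bases, given 5′ to 3′ on the strand of the gene.
Cdkn2a, upstream start, chr4:89294620-89294709, minus strand: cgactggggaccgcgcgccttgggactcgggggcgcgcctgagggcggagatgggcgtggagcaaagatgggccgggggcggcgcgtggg
Cdkn2a, downstream start, chr4:89282193-89282282, minus strand: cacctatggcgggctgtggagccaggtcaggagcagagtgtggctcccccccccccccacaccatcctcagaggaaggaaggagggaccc
Trp53, chr11:69580244-69580333, plus strand: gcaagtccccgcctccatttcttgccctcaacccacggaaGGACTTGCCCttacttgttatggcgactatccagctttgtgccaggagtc
Mdm2, chr10:117710895-117710984, minus strand: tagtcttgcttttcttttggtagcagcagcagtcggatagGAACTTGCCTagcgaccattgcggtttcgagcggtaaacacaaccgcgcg
Cdkn1a, upstream start, chr17:29090888-29090977, plus strand: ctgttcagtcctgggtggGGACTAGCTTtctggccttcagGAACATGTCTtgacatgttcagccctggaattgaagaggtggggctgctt
Polk, start inside the gene, chr13:96519348-96519437, minus strand: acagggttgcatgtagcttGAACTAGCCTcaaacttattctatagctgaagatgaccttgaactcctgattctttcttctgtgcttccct
Phlda3, chr1:135765995-135766084, plus strand: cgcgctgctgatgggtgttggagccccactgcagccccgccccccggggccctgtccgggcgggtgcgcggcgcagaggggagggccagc
The stretches of Trp53, Mdm2 and Polk hold 1 match each and that of Cdkn1a holds 2. For these genes only windows with a match were printed, while those of Cdkn2a and Phlda3 were printed whatever they held. Cdkn1a and Polk had 2 windows each, and the window of each that is not printed held no match. The printed stretches of Cdkn2a and Phlda3 hold none. Of the 32 windows of the 23 genes, 12 held a match (37.5%), in 11 genes, against 2745 of the 32851 windows in the table (8.36%). The 11 genes are Trp53, Mdm2, Cdkn1a, Ccng1, Gadd45a, Gtse1, Bax, Aen, Ei24, Polk and Sesn1. A match to these letters is not evidence of binding.

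The libraries held between 50110129 and 56035382 reads in genes. The targeted gene Havcr2, which encodes TIM-3, was low throughout, with 55, 6 and 66 reads in G1C7, 39, 30 and 28 reads in G2C9 and 74, 58 and 60 reads in Gcontrol; reads over all exons do not show whether its protein is made. Olig1 and Olig2, which define the oligodendrocyte lineage, were at 0 in all 9 libraries and Sox10 had at most 2 reads, while Vim lay between 1800 and 2307 CPM (CPM, reads scaled to library size with TMM factors). Of the 4 tested genes of that marker list, Pdgfra, Nes and Vim were called higher and Cspg4 lower in G1C7, and Pdgfra was called higher and Cspg4 lower in G2C9. Of all tested genes, 17.5% were called in G1C7 and 13.5% in G2C9. Without G1C7 replicate 2 and G2C9 replicate 3, Vim was also called higher and Nes lower in G2C9. Pdgfra averaged 385 ± 92.2 CPM in G1C7, 448 ± 81 CPM in G2C9 and 248 ± 9.73 CPM in Gcontrol (SD, n = 3 each; edgeR adjusted p = 0.0427 and 0.016), with a highest adjusted p of 0.141 in G1C7 and 0.069 in G2C9, both when Gcontrol replicate 2 was left out. Nes and Vim in G1C7 (edgeR adjusted p = 0.0155 and 0.0428) reached 0.0806 when Gcontrol replicate 2 and 0.163 when Gcontrol replicate 3 was left out. Cspg4, the NG2 proteoglycan gene, averaged 1.30 ± 0.341 CPM in G1C7, 4.27 ± 1.04 CPM in G2C9 and 43.6 ± 4.72 CPM in Gcontrol (SD, n = 3 each), and whether a shift in cell state has a part in the results below was not tested. The 3 T cell markers had at most 2 reads a library. Of 5 markers of microglia and macrophages, 4 had at most 6 reads, among them Ptprc, and Csf1r had 16, 22 and 29 reads in G1C7, 35, 28 and 32 in G2C9 and 48, 77 and 60 in Gcontrol. Csf1r was called lower in G1C7 (log2 fold change -1.45 ± 0.31, edgeR adjusted p = 0.0138), a call lost when Gcontrol replicate 2 was left out (edgeR adjusted p = 0.0633). Fibroblast and mural markers summed to between 1946 and 4612 CPM in G1C7, between 2523 and 5469 CPM in G2C9 and between 3646 and 3857 CPM in Gcontrol. Of the astrocyte, neuron and endothelial markers, Aldh1l1 was called lower in G1C7 and Tubb3 lower in G2C9 (edgeR adjusted p = 0.0452 and 0.0215). Cdh5, an endothelial marker, was called higher in G2C9, at 3.55 ± 0.251 CPM against 0.729 ± 0.0975 CPM in Gcontrol (edgeR adjusted p = 0.00074). When 1 library at a time was left out, these calls held in 1, 4 and 9 of 9 fits. A pair of libraries stood apart from their groups. On the second principal component, which held 24.8% of the variance, G1C7 replicate 2 was at -79.4 and G2C9 replicate 3 at -49.8, while the other 7 libraries lay between 4.13 and 30.5. The summed acute-phase genes (Hp, Saa3, Lcn2, C3, Cxcl1, Ccl2 and Il6) reached 4987 CPM in G1C7 replicate 2, against 1193 and 1186 CPM in the other G1C7 libraries, and 11382 CPM in G2C9 replicate 3, against 2655 and 2727 CPM in the other G2C9 libraries. Gcontrol lay between 2415 and 2523 CPM. Where leaving out this pair changes a call on the genes described below, the value or the count without it is given as well.

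Most of the 31 genes were transcribed in this line, over a wide range of levels. Levels between genes are compared as RPKM, which is CPM per kilobase of counted exon, as the mean ± SD of 3 libraries. Cdkn2a was the most abundant of the 29 genes with enough reads to test, at 241 ± 50.9 RPKM in G1C7, 204 ± 63.8 RPKM in G2C9 and 201 ± 1.09 RPKM in Gcontrol. In Gcontrol this put it at percentile 98.7 of all 15659 tested genes. Plk2, a Polo-like kinase, followed at 47.5 ± 14.4 RPKM in G1C7, 47.1 ± 0.88 RPKM in G2C9 and 51.4 ± 0.565 RPKM in Gcontrol. Cdkn2b, which lies next to Cdkn2a on chromosome 4, had the lowest level of the 29, at 0.388 ± 0.145 RPKM in G1C7, 0.353 ± 0.228 RPKM in G2C9 and 0.331 ± 0.13 RPKM in Gcontrol. Trp53 was 23rd in Gcontrol, with 2.19 ± 0.727 RPKM in G1C7, 2.01 ± 0.055 RPKM in G2C9 and 3.02 ± 0.211 RPKM in Gcontrol (percentile 46.2). The median of the 29 genes was 6.58 RPKM in G1C7, 6.01 RPKM in G2C9 and 5.95 RPKM in Gcontrol, against 3.88, 3.73 and 3.72 RPKM over all tested genes.

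**Figure D1:**
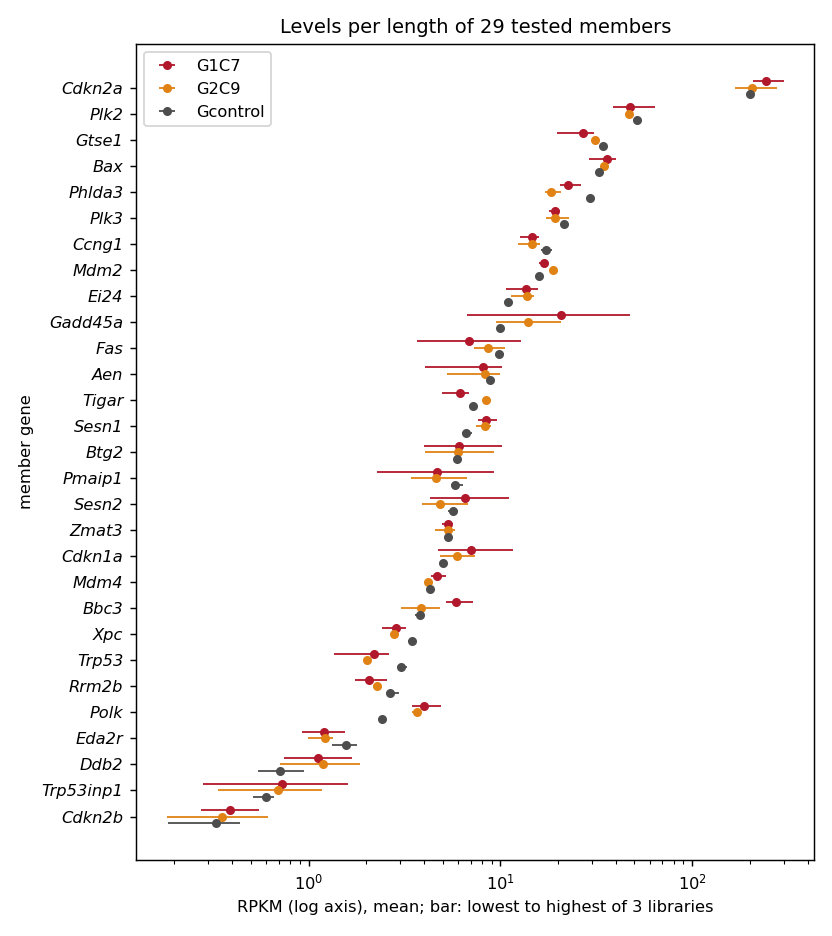
Mean level per length (RPKM, log axis) of the 29 tested genes in G1C7, G2C9 and Gcontrol, ordered by the level in Gcontrol; bars run from the lowest to the highest of 3 libraries. Cdkn2a stands above all others in each group and Cdkn2b is the lowest in Gcontrol, while Gadd45a has the widest bar in G1C7.

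The spread among libraries differed by group. The coefficient of variation of the 29 genes had a median of 21.1% in G1C7, 14.6% in G2C9 and 3.73% in Gcontrol, against 21.2%, 16.6% and 6.38% over all tested genes. Within G1C7 it ran from 5.44% for Mdm2 to 114% for Gadd45a. The death receptor gene Tnfrsf10b had 9 reads in all of G1C7, 16 in G2C9 and 18 in Gcontrol. Perp, a desmosomal gene also linked to apoptosis, had 0, 0 and 2 reads in G1C7, none in G2C9 and 4, 4 and 24 reads in Gcontrol. Both were too low to test; no reads in a group leave room for up to 6 reads over its 3 libraries, or 3 read pairs, by counting error alone.

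Against Gcontrol, few of the genes passed the test. A gene was called at an adjusted p under 0.05 by edgeR's quasi-likelihood test, with Benjamini-Hochberg adjustment over all 15659 tested genes. In G1C7 1 of 29 was called, Polk, which was higher, while 17.5% of all tested genes were called (8.77% higher and 8.73% lower). In G2C9 2 of 29 were called, Polk (higher) and Phlda3 (lower), while 13.5% of all tested genes were called (6.25% higher and 7.22% lower). The median log2 fold change of the 29 genes was 0.040 in G1C7 and -0.0041 in G2C9, beside 0.016 and 0.014 over all tested genes. At an unadjusted p under 0.05 there were 6 genes in each comparison. The share of all tested genes under that unadjusted threshold was not counted, here or for the later counts that use it. Those counts therefore cannot be set against a background. The libraries of G1C7 and Gcontrol did not overlap for 10 of 29 genes (4 higher and 6 lower), while this held for 43% of all tested genes. The libraries of G2C9 and Gcontrol did not overlap for 13 of 29 (6 higher and 7 lower), while this held for 43.3% of all tested genes. In these bulk libraries, fewer cells that transcribe a gene and less RNA per cell cannot be told apart. The 2 comparisons share the Gcontrol libraries.

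Without G1C7 replicate 2 and G2C9 replicate 3, the counts were larger for these genes and for all genes. Those fits keep only replicates 1 and 3 of G1C7 and replicates 1 and 2 of G2C9. The pair was picked because it stood apart in these same data. Leaving out libraries that deviate lowers the spread on which the p-values rest, so small values from these fits overstate certainty. In G1C7, 22 of 29 genes were then called (7 higher and 15 lower), while 54.3% of all tested genes were called (26.4% higher and 27.9% lower). In G2C9, 17 of 29 were called (6 higher and 11 lower), while 53% of all tested genes were called (25.4% higher and 27.6% lower). The median log2 fold change of the 29 genes was then -0.15 in G1C7 and -0.11 in G2C9, beside -0.011 and -0.0099 over all tested genes.

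**Figure D2:**
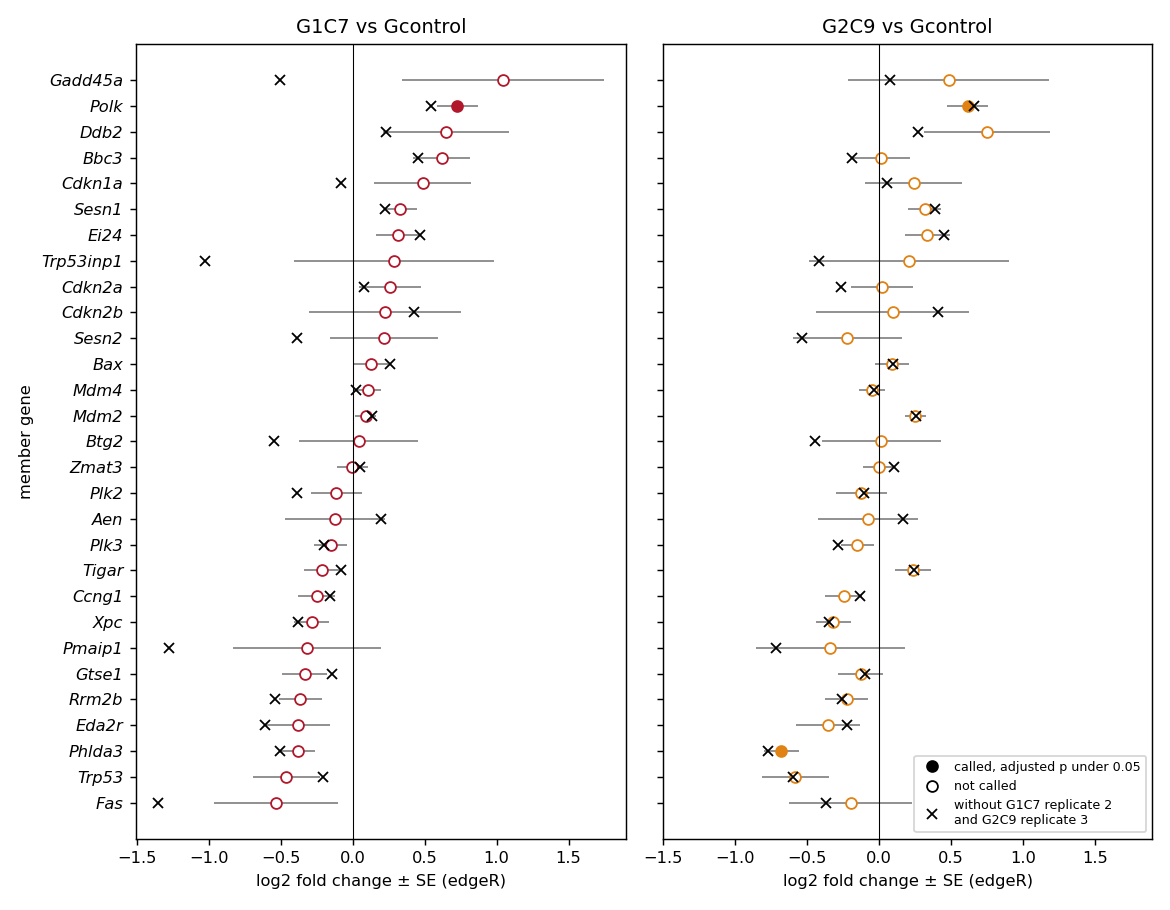
Log2 fold change with its standard error for the 29 tested genes, G1C7 against Gcontrol on the left and G2C9 against Gcontrol on the right; filled points were called, and crosses give the fit without G1C7 replicate 2 and G2C9 replicate 3. Polk is filled on both sides and Phlda3 on the right, and the crosses of Fas, Pmaip1, Trp53inp1 and Gadd45a in G1C7 lie far below their points.

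Trp53 had 10.4, 5.46 and 10.7 CPM in G1C7, 8.18, 7.90 and 8.34 CPM in G2C9 and 11.8, 13.2 and 11.6 CPM in Gcontrol. All 6 derivative libraries lay below every Gcontrol library, and G1C7 replicate 2 was the lowest of the 9. The log2 fold change was -0.46 ± 0.23 (SE) in G1C7 (edgeR adjusted p = 0.213) and -0.58 ± 0.23 in G2C9 (edgeR adjusted p = 0.143), so neither difference passed. Without G1C7 replicate 2 and G2C9 replicate 3 the values were -0.21 (edgeR adjusted p = 0.0496) and -0.60 (edgeR adjusted p = 1.9e-05). With only the 2 groups compared in each fit, they were -0.46 (edgeR adjusted p = 0.284) and -0.58 (edgeR adjusted p = 0.0092). The 142 other tested genes within 5 Mb of Trp53 on chromosome 11 had a median log2 fold change of -0.099 in G1C7 and -0.25 in G2C9. The counts cover all exons together and do not show whether the transcript encodes a full-length protein.

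Mdm2 varied little, with 89.5, 80.7 and 87.9 CPM in G1C7, 93.5, 99.1 and 95.5 CPM in G2C9 and 81.6, 79.7 and 81.2 CPM in Gcontrol. All G2C9 libraries were above all Gcontrol libraries, while G1C7 overlapped Gcontrol. The log2 fold change was 0.09 ± 0.07 in G1C7 (edgeR adjusted p = 0.447) and 0.25 ± 0.07 in G2C9 (edgeR adjusted p = 0.0571). The difference in G2C9 was called by DESeq2 (adjusted p = 0.0039). Without the pair of libraries Mdm2 was called higher in both, at 0.14 (edgeR adjusted p = 0.016) and 0.25 (edgeR adjusted p = 0.00012). The 53 other tested genes within 5 Mb of Mdm2 had a median log2 fold change of 0.25 in G1C7 and 0.20 in G2C9. Of these neighbours, 26.4% were called in G1C7 and 24.5% in G2C9, beside 17.5% and 13.5% of all tested genes. Whether the region has a part in the level of Mdm2 was not tested. Mdm4 lay between 59.9 and 77.2 CPM over all 9 libraries and was not called in either derivative.

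Cdkn1a encodes p21, the CDK inhibitor that carries much of the arrest downstream of p53. It had 17.0, 41.5 and 16.7 CPM in G1C7, 17.2, 19.9 and 26.3 CPM in G2C9 and 18.0, 17.6 and 18.1 CPM in Gcontrol. G1C7 replicate 2 and G2C9 replicate 3 were the highest of the 9, and the other derivative libraries lay close to Gcontrol. The log2 fold change was 0.49 ± 0.34 in G1C7 (edgeR adjusted p = 0.366) and 0.24 ± 0.34 in G2C9 (edgeR adjusted p = 0.711). Without the pair of libraries it was -0.08 ± 0.075 in G1C7 (edgeR adjusted p = 0.384) and 0.05 ± 0.075 in G2C9 (edgeR adjusted p = 0.59). With all libraries, the 227 other tested genes within 5 Mb of Cdkn1a had a median of 0.39 in G1C7 and 0.078 in G2C9. Of these neighbours, 33.5% were called in G1C7 and 9.25% in G2C9.

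Of the 7 arrest genes none was called in either derivative by edgeR or limma-voom, and 0 had an unadjusted p under 0.05. DESeq2 gave no adjusted p for Gadd45a and called none of the others. Besides Cdkn1a the arrest genes are Ccng1 (cyclin G1), Btg2 (an antiproliferative cofactor), Gadd45a (a stress protein that binds CDK1 and PCNA), Gtse1 (a microtubule protein that restrains p53) and the kinases Plk2 and Plk3. Gadd45a, chosen here after its values were seen, had 13.0, 84.1 and 11.9 CPM in G1C7, 16.7, 20.4 and 36.7 CPM in G2C9 and 17.5, 18.0 and 17.3 CPM in Gcontrol. One library of G1C7 was thus above the 8 others, and the remaining G1C7 libraries were below Gcontrol. Its log2 fold change in G1C7 was 1.04 ± 0.70 (edgeR adjusted p = 0.351) with all libraries and -0.50 ± 0.087 (edgeR adjusted p = 8.7e-05) without the pair. Exons of Gadd45a share 19.1% of their bases with a gene on the other strand, and strand was not used in counting. Gtse1 lay below Gcontrol in all 6 derivative libraries, at 84.8, 54.0 and 84.0 CPM in G1C7 and 87.6, 87.1 and 82.1 CPM in G2C9, against 94.1, 91.5 and 94.9 CPM in Gcontrol. Ccng1 did so as well, with log2 fold changes of -0.25 ± 0.13 in G1C7 and -0.25 ± 0.13 in G2C9 (edgeR adjusted p = 0.223 and 0.261). Without the pair, 6 of the 7 arrest genes were called lower in G1C7 (all but Cdkn1a) and 3 of 7 in G2C9 (Btg2, Plk2 and Plk3). Of all tested genes, 27.9% were then called lower in G1C7 and 27.6% in G2C9.

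**Figure D3:**
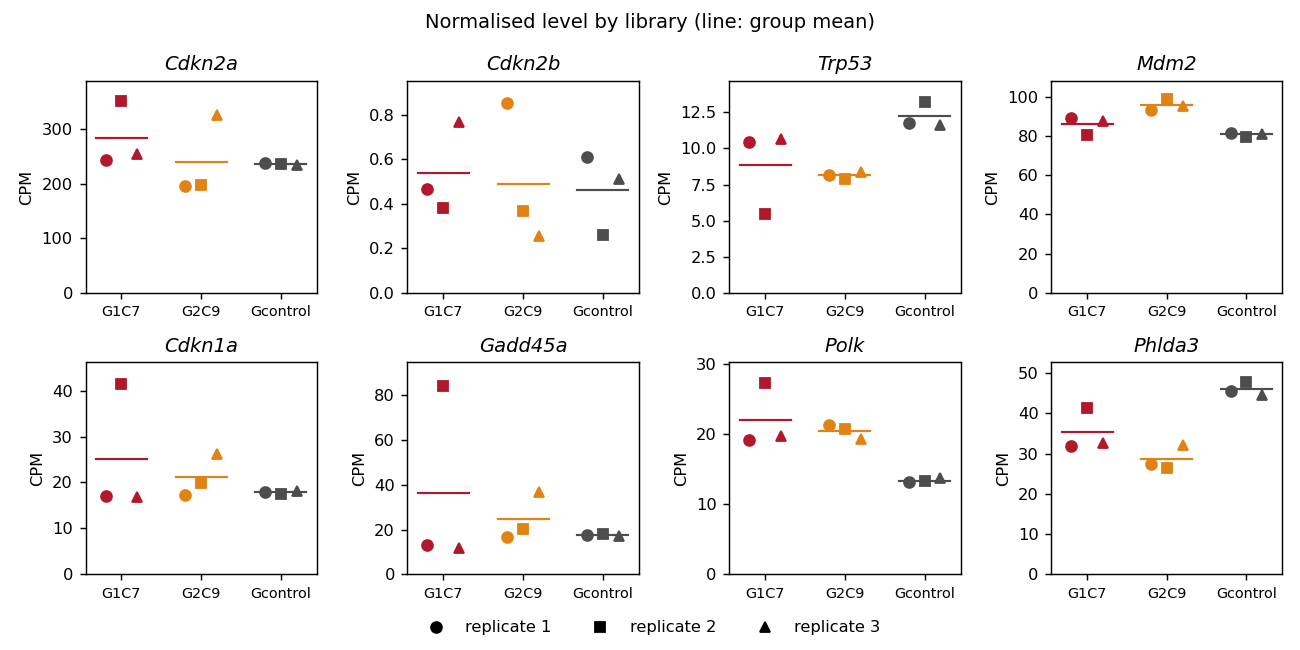
Normalised level (CPM) by library of 8 genes in G1C7, G2C9 and Gcontrol; symbols give the replicate and lines the group mean. In Cdkn1a and Gadd45a the second G1C7 library (41.5 and 84.1 CPM) stands above the other 8, while in Polk all 6 derivative libraries lie above Gcontrol and in Phlda3 below it.

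Of the 10 cell death genes tested, 1 passed, and in G2C9: Phlda3, a pleckstrin homology protein that competes with AKT for membrane lipids. It had 32.0, 41.2 and 32.6 CPM in G1C7, 27.3, 26.5 and 32.2 CPM in G2C9 and 45.6, 47.7 and 44.6 CPM in Gcontrol. All 6 derivative libraries lay below every Gcontrol library. Phlda3 fell by 0.68 ± 0.12 on the log2 scale in G2C9 (edgeR adjusted p = 0.0085), and the call held in each of the 9 fits that left out 1 library. In G1C7 the log2 fold change was -0.38 ± 0.12 (edgeR adjusted p = 0.065), which did not pass; it passed with DESeq2 (adjusted p = 0.0205), without G1C7 replicate 2 (edgeR adjusted p = 0.0065) and without G2C9 replicate 3 (edgeR adjusted p = 0.0401). Between G1C7 and G2C9 the log2 difference was 0.30 ± 0.12 (edgeR adjusted p = 0.294). Without the pair Phlda3 was called in G1C7, at -0.51 (edgeR adjusted p = 4.6e-07), and between G1C7 and G2C9, at 0.26 (edgeR adjusted p = 0.0037). The 91 other tested genes within 5 Mb of Phlda3 had a median log2 fold change of -0.14 in G1C7 and -0.097 in G2C9.

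The genes of the mitochondrial death pathway differed from Gcontrol in no common direction. Bbc3, which encodes the BH3-only protein PUMA, had 11.1, 15.2 and 11.1 CPM in G1C7, 7.80, 6.47 and 10.3 CPM in G2C9 and 7.62, 8.35 and 8.45 CPM in Gcontrol. Every G1C7 library was above every library of both other groups. Its log2 fold change in G1C7 was 0.62 ± 0.20 (edgeR adjusted p = 0.0673), called by DESeq2 (adjusted p = 0.0221). Without the pair it was 0.45 (edgeR adjusted p = 0.00064). Pmaip1, which encodes the BH3-only protein NOXA, had 6.21, 25.2 and 6.89 CPM in G1C7, 9.92, 9.39 and 18.4 CPM in G2C9 and 15.2, 17.4 and 15.1 CPM in Gcontrol. G1C7 replicate 2 and G2C9 replicate 3 were above Gcontrol and the other 4 derivative libraries below it. Bax, the pore-forming effector, lay between 45.8 and 63.3 CPM in all 9 libraries, and its log2 fold change was 0.13 ± 0.12 in G1C7 and 0.09 ± 0.12 in G2C9 (edgeR adjusted p = 0.505 and 0.692). Without the pair Bax was called higher in G1C7, at 0.26 (edgeR adjusted p = 0.00022), and was 0.10 in G2C9 (edgeR adjusted p = 0.12).

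Fas, the receptor for FAS ligand, had 7.58, 26.3 and 8.37 CPM in G1C7, 16.3, 15.1 and 21.9 CPM in G2C9 and 20.0, 21.6 and 19.5 CPM in Gcontrol. In G1C7 the libraries split, with replicate 2 above all of Gcontrol and the other G1C7 libraries below it. The log2 fold change of Fas in G1C7 was -0.53 ± 0.43 (edgeR adjusted p = 0.441) with all libraries and -1.35 ± 0.084 (edgeR adjusted p = 3.1e-10) without the pair; in G2C9 the value without the pair was -0.37 (edgeR adjusted p = 0.0006). For Pmaip1, the NOXA gene given above, the log2 fold change in G1C7 was -0.32 ± 0.52 (edgeR adjusted p = 0.717) and -1.28 ± 0.095 (edgeR adjusted p = 3.2e-09), and without the pair it was -0.72 in G2C9 (edgeR adjusted p = 3.1e-06). Trp53inp1, a regulator of autophagy and of p53 phosphorylation, had 1.83, 10.4 and 1.97 CPM in G1C7, 2.18, 3.63 and 7.62 CPM in G2C9 and 4.03, 4.29 and 3.33 CPM in Gcontrol. G1C7 replicate 2 and G2C9 replicate 3 were again above Gcontrol, and both other G1C7 libraries were below it. Without the pair Trp53inp1 was called lower in G1C7, at -1.02 (edgeR adjusted p = 0.00028). Aen, an apoptosis-enhancing nuclease, split the other way, with 58.9, 23.6 and 58.1 CPM in G1C7, 57.8, 56.3 and 30.7 CPM in G2C9 and 51.4, 50.0 and 51.6 CPM in Gcontrol. Without the pair Aen was called higher in both, at 0.20 in G1C7 and 0.16 in G2C9 (edgeR adjusted p = 0.0017 and 0.0081). Ei24, Eda2r (a receptor for ectodysplasin A2) and Zmat3 (an RNA-binding zinc finger protein) were not called with all libraries; Ei24 lay above Gcontrol in 5 of 6 derivative libraries, and Zmat3 lay between 51.9 and 66.4 CPM over all 9 libraries. Without the pair Ei24 was called higher in both, at 0.47 in G1C7 and 0.45 in G2C9 (edgeR adjusted p = 3.7e-07 and 6.7e-07), and Eda2r lower in G1C7, at -0.61 (edgeR adjusted p = 0.00039). These genes were singled out after their values were seen, and whether the state marked by the acute-phase genes has a part in the split was not tested.

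**Figure D4:**
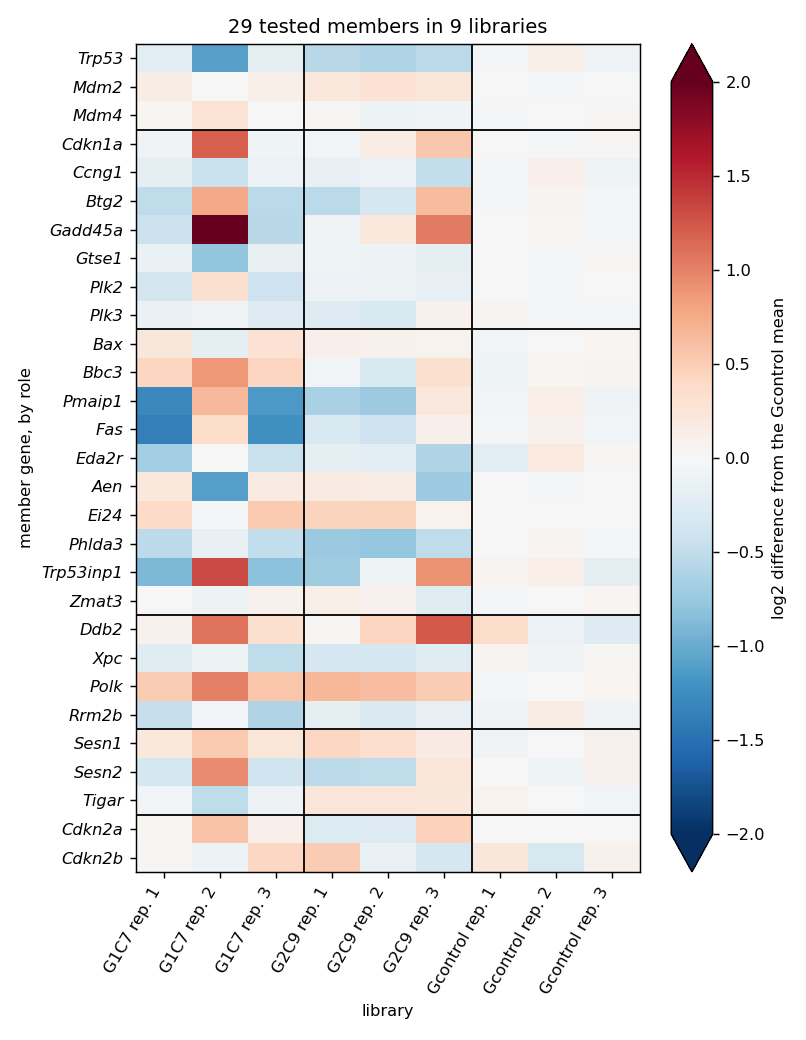
Log2 difference of each library from the Gcontrol mean, with a pseudocount of 0.5 CPM, for the 29 tested genes ordered by role; colours saturate at 2 and -2. The column of G1C7 replicate 2 differs from the other G1C7 columns in Cdkn1a, Gadd45a, Btg2, Pmaip1, Fas, Trp53inp1 and Sesn2 (red) and in Aen (blue), and that of G2C9 replicate 3 does so to a smaller degree.

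In G1C7, replicate 2 was the highest of its group for 19 of 29 genes, while this held for 46.1% of all tested genes. In that library 7 of 29 genes (24.1%) lay at least 2-fold from the Gcontrol mean, and 13.1% of all tested genes did. In each of the other G1C7 libraries 2 of 29 genes did, and 6.21% and 6.35% of all tested genes. In G2C9, replicate 3 was the highest of its group for 15 of 29 genes, and 45.1% of all tested genes were highest there; 2 of 29 genes lay at least 2-fold from the Gcontrol mean in that library and none in the other G2C9 libraries, beside 8.25%, 6.06% and 6.14% of all tested genes in replicates 3, 1 and 2.

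Polk was called in each derivative. It encodes DNA polymerase kappa, which copies past damaged bases. Polk had 19.2, 27.3 and 19.8 CPM in G1C7, 21.4, 20.8 and 19.3 CPM in G2C9 and 13.1, 13.3 and 13.7 CPM in Gcontrol. All 6 derivative libraries lay above every Gcontrol library. Polk rose by 0.73 ± 0.14 on the log2 scale in G1C7 (edgeR adjusted p = 0.0099) and by 0.61 ± 0.14 in G2C9 (edgeR adjusted p = 0.0228). The call in G1C7 was lost without Gcontrol replicate 1 (edgeR adjusted p = 0.0502). The call in G2C9 was lost without G2C9 replicate 1 (edgeR adjusted p = 0.0786), without G2C9 replicate 2 (0.0675), without Gcontrol replicate 1 (0.0959), replicate 2 (0.0807) or replicate 3 (0.0762), and with the replicate number as a block (0.0556); the direction was the same in each. Polk lies on chromosome 13 (96480690 to 96542579, GRCm38), and the 73 other tested genes within 5 Mb of it had a median log2 fold change of 0.44 in G1C7 and 0.50 in G2C9, of which 39.7% were called in each. Whether the copy number of this region differs was not tested.

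The other genes of this role were not called with all libraries. Xpc, a sensor of bulky DNA lesions, lay below Gcontrol in all 6 derivative libraries, at 16.0, 17.6 and 13.3 CPM in G1C7 and 15.0, 14.8 and 16.0 CPM in G2C9, against 19.7, 18.0 and 19.4 CPM in Gcontrol. Its log2 fold change was -0.28 ± 0.12 in G1C7 and -0.32 ± 0.12 in G2C9 (edgeR adjusted p = 0.145 and 0.122). Rrm2b, the p53-inducible subunit of ribonucleotide reductase, had log2 fold changes of -0.36 ± 0.15 and -0.23 ± 0.15 (edgeR adjusted p = 0.131 and 0.371). Without the pair both genes were called lower in each derivative, Xpc at -0.38 in G1C7 and -0.35 in G2C9 (edgeR adjusted p = 0.00085 and 0.0017) and Rrm2b at -0.54 and -0.26 (edgeR adjusted p = 2.3e-05 and 0.013). Ddb2, the other lesion sensor, was the lowest of the 4, between 1.5 and 5.1 CPM in the 9 libraries, and shares 23.8% of its exonic bases with Acp2 on the other strand.

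Of the 3 metabolic targets none was called in either derivative by edgeR, DESeq2 or limma-voom, and 1 had an unadjusted p under 0.05 in each, Sesn1. Sesn1, a sestrin that restrains mTORC1, had 30.6, 38.2 and 31.3 CPM in G1C7, 35.6, 33.6 and 29.7 CPM in G2C9 and 25.1, 26.2 and 28.2 CPM in Gcontrol. Both derivatives lay above Gcontrol in every library, with log2 fold changes of 0.33 ± 0.12 in G1C7 and 0.31 ± 0.12 in G2C9 (edgeR adjusted p = 0.0856 and 0.116). Its relative Sesn2 was split by library, with 15.3, 38.5 and 14.8 CPM in G1C7, 13.6, 13.6 and 23.5 CPM in G2C9 and 19.8, 18.5 and 20.8 CPM in Gcontrol. Tigar, a phosphatase that lowers fructose-2,6-bisphosphate, had 25.3, 18.2 and 24.4 CPM in G1C7, 31, 31 and 30.7 CPM in G2C9 and 27.5, 26.0 and 25.2 CPM in Gcontrol. The G2C9 libraries were the highest 3 of the 9. Without the pair Sesn1 was called higher in both, at 0.23 in G1C7 and 0.39 in G2C9 (edgeR adjusted p = 0.0057 and 5.4e-05), and Sesn2 lower in both, at -0.39 and -0.53 (edgeR adjusted p = 0.00024 and 1e-05). Tigar was then called higher in G2C9, at 0.24 (edgeR adjusted p = 0.0029). With all libraries, the 53 other tested genes within 5 Mb of Sesn1 had a median log2 fold change of 0.22 in G1C7 and 0.29 in G2C9. Of these neighbours, 28.3% were called in G1C7 and 24.5% in G2C9. Whether the region has a part in the level of Sesn1 was not tested.

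Neither gene of the INK4 locus was called in either derivative by edgeR, DESeq2 or limma-voom, and 0 of the 2 had an unadjusted p under 0.05. Cdkn2a had 243, 351 and 254 CPM in G1C7, 196, 197 and 326 CPM in G2C9 and 237, 236 and 234 CPM in Gcontrol. G1C7 lay above Gcontrol in every library, and G2C9 overlapped it, with replicate 3 above Gcontrol and the other G2C9 libraries below it. The log2 fold change of Cdkn2a was 0.26 ± 0.22 in G1C7 (edgeR adjusted p = 0.452) and 0.02 ± 0.22 in G2C9 (edgeR adjusted p = 0.965). Without the pair of libraries it was 0.08 ± 0.039 in G1C7 (edgeR adjusted p = 0.109) and -0.26 ± 0.040 in G2C9 (edgeR adjusted p = 2.2e-05). The count of Cdkn2a adds transcripts from both first exons, so p16INK4a and p19ARF messages are not separated here.

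Cdkn2b had 0.468, 0.382 and 0.767 CPM in G1C7, 0.852, 0.367 and 0.254 CPM in G2C9 and 0.610, 0.259 and 0.512 CPM in Gcontrol. The groups overlapped, on 88, 74 and 76 reads in all. Its log2 fold change was 0.23 ± 0.53 in G1C7 and 0.09 ± 0.53 in G2C9 (edgeR adjusted p = 0.806 and 0.94), a difference not detectable at this depth. Of 5 tested neighbours of the locus edgeR called 1 in G1C7, while it called 17.5% of all tested genes. In G2C9 edgeR, DESeq2 and an unadjusted p under 0.05 gave 0 of 5, while edgeR called 13.5% of all tested genes. The one in G1C7 was Mllt3, which encodes a subunit of the super elongation complex. It averaged 67.7 ± 2.48 CPM in G1C7 and 45.7 ± 1.33 CPM in Gcontrol (SD, n = 3 each), a log2 fold change of 0.57 ± 0.10 (edgeR adjusted p = 0.0074). Without the pair Mllt3 and Focad were called higher in each derivative, 2 of 5 genes, while 54.3% of all tested genes in G1C7 and 53% in G2C9 were called. Of 10 tested repressors and activators of the locus, among them the Polycomb genes Bmi1 and Ezh2, none was called in G1C7 by edgeR. DESeq2 called 5 there, and 5 had an unadjusted p under 0.05, while DESeq2 called 3862 of all 15659 tested genes. In G2C9 the E3 ligase gene Rnf2 was called lower, at 45.5 ± 1.01 CPM against 57.3 ± 3.56 CPM in Gcontrol (edgeR adjusted p = 0.0351). That call held in 2 of the 9 fits that left out 1 library, and its highest adjusted p was 0.146, when Gcontrol replicate 2 was left out. Without G1C7 replicate 2 and G2C9 replicate 3, 4 of these 10 genes were called higher and 5 lower in each derivative, while 54.3% of all tested genes in G1C7 and 53% in G2C9 were called.

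The 2 derivatives were also compared with each other. None of the 29 genes was called by edgeR, while 3.36% of all tested genes were called (1.71% higher and 1.65% lower in G1C7); at an unadjusted p under 0.05 there were 3 (Bbc3, Phlda3 and Tigar), and DESeq2 called 1, Tigar. Tigar was lower in G1C7 than in G2C9, with a log2 difference of -0.45 ± 0.13 (edgeR adjusted p = 0.105, DESeq2 adjusted p = 0.0194). Bbc3 had a log2 difference of 0.61 ± 0.20 (edgeR adjusted p = 0.175) and Mdm2 one of -0.16 ± 0.07 (edgeR adjusted p = 0.359). Without the pair Tigar was -0.32 (edgeR adjusted p = 0.0015) and Bbc3 0.64 (edgeR adjusted p = 0.0002), both then called. Trp53 and Cdkn2a were then called as well, at 0.39 and 0.34 (edgeR adjusted p = 0.0054 and 8.7e-06). With all libraries they were 0.12 and 0.24 (edgeR adjusted p = 0.892 and 0.719). The libraries of G1C7 and G2C9 did not overlap for 3 genes, Bbc3, Mdm2 and Tigar, out of 29, while this held for 18.2% of all tested genes. Without G1C7 replicate 2 and G2C9 replicate 3, 12 of 29 genes were called (5 higher and 7 lower in G1C7), while 27.3% of all tested genes were called (14.8% higher and 12.5% lower in G1C7).

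Further p53 targets outside the 31 genes were also counted. Of 37 tested, 5 were higher and 2 lower in G1C7, while 17.5% of all tested genes were called, and 2 were higher and 4 lower in G2C9, while 13.5% of all tested genes were called. The median log2 fold change of this list was -0.12 in G1C7 and -0.078 in G2C9. Without G1C7 replicate 2 and G2C9 replicate 3, 8 were higher and 20 lower in G1C7 (54.3% of all tested genes were called), and 9 were higher and 18 lower in G2C9 (53%). Pml, which encodes the scaffold of nuclear bodies that recruit p53, averaged 103 ± 10.1 CPM in G1C7, 97.9 ± 10.0 CPM in G2C9 and 64.0 ± 2.82 CPM in Gcontrol (SD, n = 3 each). It was called higher in both, with log2 fold changes of 0.69 ± 0.11 and 0.61 ± 0.11 (edgeR adjusted p = 0.0033 and 0.0068). Polh, which encodes DNA polymerase eta, another enzyme that copies past damage, averaged 67.4 ± 4.39 CPM in G1C7 and 44.9 ± 1.05 CPM in Gcontrol (edgeR adjusted p = 0.0033). The lower genes included Cyfip2, a subunit of the WAVE regulatory complex of actin, at 0.410 ± 0.0819 CPM in G1C7, 0.502 ± 0.158 CPM in G2C9 and 1.49 ± 0.0772 CPM in Gcontrol. The receptor gene Notch1 had 33, 26 and 66 reads in G2C9, against 232, 232 and 262 in Gcontrol, a log2 fold change of -2.41 ± 0.32 (edgeR adjusted p = 0.0021). The calls of Pml, Polh and Notch1 held in each of the 9 fits that left out 1 library; that of Cyfip2 did so in G1C7 and in 7 of 9 in G2C9 (highest adjusted p 0.0511, when Gcontrol replicate 3 was left out).

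Among 18 tested kinases, cofactors and relatives of p53, 1 was higher and 1 lower in G1C7 (17.5% of all tested genes were called), and 1 was higher and 2 lower in G2C9 (13.5%). Without the pair of libraries, 8 were higher and 4 lower in G1C7 (54.3% of all), and 6 were higher and 3 lower in G2C9 (53% of all). Trp53bp1, which encodes 53BP1, a repair protein that binds p53, averaged 39.96 ± 2.97 CPM in G1C7 and 55.1 ± 2.17 CPM in Gcontrol (edgeR adjusted p = 0.0115); the call was lost without Gcontrol replicate 1 (edgeR adjusted p = 0.0604). Hipk2, which encodes a kinase of p53, averaged 88.3 ± 32.9 CPM in G2C9 and 39.4 ± 6.15 CPM in Gcontrol (edgeR adjusted p = 0.0214), a call that held in 4 of 9 such fits, and its highest adjusted p was 0.0954, when Gcontrol replicate 2 was left out.

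Among CDK inhibitors and the machinery on which they act, the genes called with all libraries were higher and none was lower. Of 18 CDK inhibitors, D and E cyclins, their CDKs, RB proteins and E2F factors, 5 were higher in G1C7 and 3 in G2C9, and none was lower in either. Of all tested genes 8.77% were higher in G1C7 and 6.25% in G2C9. The median log2 fold change of this list was 0.34 in G1C7 and 0.19 in G2C9. Without the pair of libraries, 14 were higher and 1 lower in G1C7 (26.4% and 27.9% of all tested genes), and 11 were higher and 1 lower in G2C9 (25.4% and 27.6% of all). Ccnd2, which encodes cyclin D2, the partner of CDK4 and CDK6, averaged 144 ± 22.3 CPM in G1C7, 130 ± 7.94 CPM in G2C9 and 73.2 ± 4.78 CPM in Gcontrol (SD, n = 3 each). Its log2 fold change was 0.98 ± 0.12 in G1C7 and 0.82 ± 0.12 in G2C9 (edgeR adjusted p = 0.0015 and 0.0035), called in each of the 9 fits that left out 1 library. Cdkn2d, which encodes p19INK4d, averaged 37.1 ± 6.41 CPM in G1C7, 35.4 ± 1.48 CPM in G2C9 and 24.9 ± 1.03 CPM in Gcontrol (edgeR adjusted p = 0.0144 and 0.0277). Its calls held in 6 and 4 of the 9 fits, and the highest adjusted p-values were 0.0673 and 0.109, when Gcontrol replicate 3 was left out. Cdkn1c, which encodes p57, had 501, 633 and 493 reads in G1C7, 96, 119 and 296 in G2C9 and 182, 194 and 186 in Gcontrol. It was called higher in G1C7 (log2 fold change 1.55 ± 0.37, edgeR adjusted p = 0.0234), in 5 of 9 fits. Its highest edgeR adjusted p was 0.0946, when Gcontrol replicate 3 was left out. Without the pair of libraries Cdkn1c was called higher in G1C7 and was the 1 gene of the list called lower in G2C9.

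Proliferation genes that p53 and p21 repress through the DREAM complex were counted in the same way, beside 17.5% of all tested genes called in G1C7 and 13.5% in G2C9. Of 15 tested, none was called in G1C7 by edgeR, while DESeq2 called 1 and 2 had an unadjusted p under 0.05. In G2C9 1 was lower, Aurkb, which encodes the mitotic kinase Aurora B, at 96.8 ± 4.90 CPM in G2C9 and 116 ± 3.13 CPM in Gcontrol (edgeR adjusted p = 0.0488). That call held in 1 of the 9 fits that left out 1 library, and its highest adjusted p was 0.202, when Gcontrol replicate 1 was left out. The median log2 fold change of the list was -0.037 in G1C7 and -0.043 in G2C9. Without the pair of libraries the medians were 0.063 and 0.064, the opposite sign, with 6 genes higher and 4 lower in G1C7 (54.3% of all tested genes were called) and 7 higher and 4 lower in G2C9 (53%).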

How the data were processed

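The deposited values are counts of reads per gene from featureCounts 1.6.0, run on STAR output with GENCODE vM25 (GRCm38) by the authors, per the file headers; STAR 2.6.1c, FastQC 0.11.8, edgeR and limma are named in the submitters' processing notes. The headers of 9 of 9 tables hold no option for pairs, strand or multi-mapping, so both mates of a pair count; even numbers made up 74.1% to 75.6% of the counts of 2 to 50. Gene lengths in the deposited tables (another value beside the count) gave RPKM. Libraries held 50110129 to 56035382 reads; counting intervals cover counting error only. The labels name no batch. Symbols came from a GENCODE vM21 table (55141 of 55401 IDs).

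TMM factors lay between 0.978 and 1.03. Genes kept by filterByExpr (15659) entered 1 edgeR 4.0.16 quasi-likelihood fit (R 4.3.3, robust, 6 residual degrees of freedom, biological coefficient of variation 0.248) over all 9 libraries; each SE is the size of the log2 fold change divided by the root of its F statistic. The procedure was tested on simulated data. Alternatives were RLE scaling, no filter, DESeq2 1.42.0, limma-voom (limma 3.58.1), the replicate number as a block, only the 2 groups compared, each library left out, and both libraries that stand apart left out. The 31 genes and all lists were chosen with earlier results of these data known. Values by library are given for Trp53, Mdm2, Cdkn1a, Cdkn2a, Cdkn2b and each of the 31 genes called, and for others singled out after their values were seen; of other lists, up to 3 called genes a direction could be named.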

Additional observations from a re-analysis of the deposited data

How the results depend on the processing

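Of the 31 genes, the number called in G1C7 against Gcontrol was 1 with all libraries, 3 with DESeq2 and 22 without G1C7 replicate 2 and G2C9 replicate 3, and 0 to 10 when 1 library at a time was left out (10 without G1C7 replicate 2). In G2C9 against Gcontrol it was 2, with 1 under the replicate block, 5 with only the 2 groups and 17 without both libraries, and 1 to 7 with 1 library left out (7 without G1C7 replicate 2). Between G1C7 and G2C9 it was 0, with 1 by DESeq2, 12 without both libraries and 0 to 3 with 1 library left out. Over all genes, 2740 were called in G1C7, with 1532 under the replicate block, 8581 without both libraries and 1181 to 4133 with 1 library left out. In G2C9 2109 were called, with 3190 by DESeq2, 1114 under the block, 3212 with only the 2 groups, 8383 without both libraries and 878 to 4113 with 1 library left out. Between the derivatives 526 were called, with 1267 by DESeq2, 164 under the block, 80 with only the 2 groups, 4320 without both libraries and 186 to 1286 with 1 library left out. The cause of these shifts was not tested.

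The deviations of same-numbered libraries from their group means had correlations between -0.0225 and 0.0469 for each derivative with Gcontrol. For G1C7 with G2C9 they were 0.409, -0.511 and -0.557 in replicates 1, 2 and 3. G1C7 replicate 2 and G2C9 replicate 3, which stand apart, carry different numbers and enter every deviation in their groups. These values therefore cannot decide whether the numbers pair the samples.

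For the single genes followed (Trp53, Mdm2, Cdkn1a, Cdkn2a, Cdkn2b, Polk and Phlda3), 293 values kept direction and call under an alternative, 16 passed newly, 7 no longer passed (all Polk) and 20 changed sign, none of them from a called value. Cdkn2a in G2C9 without both libraries is counted as a sign change, though it was also newly called (edgeR adjusted p = 2.2e-05). In G1C7 against Gcontrol, Cdkn1a was -0.081 without both libraries and ranged from -0.079 (G1C7 replicate 2 left out) to 0.70 over the fits with 1 library left out; Cdkn2b ranged from -0.12 (G1C7 replicate 3 left out) to 0.48 and was -0.059 with Gcontrol replicate 2 left out. In G2C9 against Gcontrol, Cdkn2a was -0.021 with limma-voom, -0.00052 under the block and -0.26 without both libraries, and ranged from -0.26 (G2C9 replicate 3 left out) to 0.15. Cdkn2b in G2C9 was -0.0062 with limma-voom and ranged from -0.56 (G2C9 replicate 1 left out) to 0.41, with -0.18 when Gcontrol replicate 2 was left out. Between the derivatives, the ranges were -0.035 to 0.38 for Trp53, -0.32 to 0.46 for Cdkn1a, -0.21 to 0.79 for Cdkn2b and -0.067 to 0.20 for Polk, and without both libraries Cdkn1a was -0.13 and Polk -0.11. Trp53 and Cdkn2a were newly called between the derivatives without both libraries, at 0.39 and 0.34. Low counts limit Cdkn2b, Tnfrsf10b and Perp.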
